A study of Bombyx mori with 4 samples.

Results

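Long gene models that carry a transposon annotation were examined among the RNAs crosslinked to BmVasa in BmN4 cells. These are silkworm (Bombyx mori) gene models, named KWMTBOMO with a number, that were annotated as transposon and were at least 4000 nt long. 452 sequences met this rule, out of 2580 transposon-annotated gene models and 18596 sequences in the table. BmVasa is the silkworm form of Vasa, a DEAD-box RNA helicase of germ cells, and BmN4 cells are a line derived from the ovary of the same species. FAST-iCLIP measured the bound RNA: proteins are fixed to RNA by UV irradiation, BmVasa is immunoprecipitated, and the fragments that stay attached are sequenced. Of the 4 samples, 2 were transfected with siRNA against luciferase (Luc KD, the control) and 2 with siRNA against Spindle-E (Spn-E KD), all in the same BmN4 line and all by electroporation.

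Vasa is a core component of nuage, the perinuclear bodies in which PIWI proteins cut transposon transcripts and new piRNAs are made. Siwi and Ago3 are the silkworm PIWI proteins, and Spn-E is a helicase whose loss is known to lower the amount of Siwi loaded with piRNA (Siwi-piRISC). Autonomous retrotransposons encode their own reverse transcriptase and often a structural protein, and their full-length transcripts run to several kilobases. A gene model of that length with a transposon annotation may thus hold a nearly complete element, a part of one joined to other sequence, or a host transcript with an insertion. The table pairs the identifiers with no gene symbol, transposon family or sequence. The roles of single models, the Spn-E level and the markers of the cell line were therefore not analysed here, so the assignment to groups is taken from the labels alone.

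The authors merged the 2 replicates per group, which makes every value below a pooled one, and differences between the knockdowns have no replicate check. Genome-mapped reads numbered 1012269 for Luc KD and 1059323 for Spn-E KD, and the table holds 384001 and 403022 reads on the gene library, the full set of 18596 sequences. All intervals are at 95% and hold counting error alone. A test on reads compares these libraries and not the conditions. Reads from near-identical copies cannot be told apart, and the methods name both random and multiple counting for such reads, without saying which the table holds. The reads of single members that resemble each other are uncertain for this reason, and such members are not independent of each other. If a read was counted on each copy, sums over members hold it repeatedly. The intervals and p-values treat such counts as separate reads.

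The long gene models were nearly all detected, though most of them thinly. Only 4 of 452 had no read in both libraries, which is 0.885%, against 7.11% of the 999 transposon-annotated gene models of 2000 to under 4000 nt and 19.5% of the 1129 shorter than 2000 nt. Longer sequences offer more positions for a read, and these shares were not corrected for length. At 4000 nt or more, 0.703% of the 711 protein-coding and 0% of the 127 transposon-library sequences had no read in both libraries. In Luc KD 14 members had 0 reads and in Spn-E KD 24 did, and a count of 0 allows up to 2.96 RPM (reads per 1000000 genome-mapped reads) and 2.83 RPM. The median member had 9 reads in each library. At the other end, 78 members had at least 100 reads over both libraries and 16 had at least 1000.

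Summed over the 452 members, 28361 reads came from Luc KD and 24011 from Spn-E KD. Their share of gene-library reads was 7.39% for Luc KD (95% Wilson interval 7.30 to 7.47), against 5.96% for Spn-E KD (5.89 to 6.03). The share fell by 1.43 points (95% Newcombe interval −1.54 to −1.32). The most abundant sequence of the table, a transposon-library entry of 9536 nt with no assigned class, had 69130 and 110071 reads, which enter the denominator of these shares. With that sequence left out of the denominator, the share changed by −0.81 points (interval −0.95 to −0.67). Genome-mapped reads as the base also include the reads of that sequence. On that base the summed reads of the members fell, with a log2 ratio of −0.31 (95% Clopper-Pearson interval −0.33 to −0.28). All protein-coding sequences together gave −0.27 (−0.28 to −0.26) on the same base, so most of the table shifted by a similar amount. The sum of the members rests largely on the 26 with a mean of at least 300 RPM, which gave −0.41 (−0.44 to −0.38), while the other 426 gave −0.12 (−0.16 to −0.078).

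Shorter models with the same annotation did not show this fall. Models of 2000 to under 4000 nt had 36609 reads (Luc KD) and 38486 (Spn-E KD), a log2 ratio of 0.0066 (95% Clopper-Pearson interval −0.014 to 0.027). Models under 2000 nt had 10513 and 10844 reads, a log2 ratio of −0.021 (−0.060 to 0.018). The ratio of the long models was lower than that of the 2000 to under 4000 nt models by 0.31 on the log2 scale, with a 95% Wald interval of the ratio of ratios from −0.34 to −0.28. For the members under 300 RPM this ratio of ratios was −0.13 (−0.17 to −0.079), and against models under 2000 nt it was −0.098 (−0.15 to −0.042). Against transposon-library sequences of at least 4000 nt the ratio of ratios was −0.73 (−0.75 to −0.70), and without its most abundant sequence it was −0.18 (−0.22 to −0.15). Against the 711 protein-coding sequences of the same length the summed reads gave a ratio of ratios of 0.0053 (−0.031 to 0.042), so that in total reads a difference from long protein-coding mRNAs was not detectable. Within the members this value was not uniform: it was 0.19 (0.14 to 0.24) for the members under a mean of 300 RPM and −0.10 (−0.14 to −0.059) for those at or above it.

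**Figure D1:**
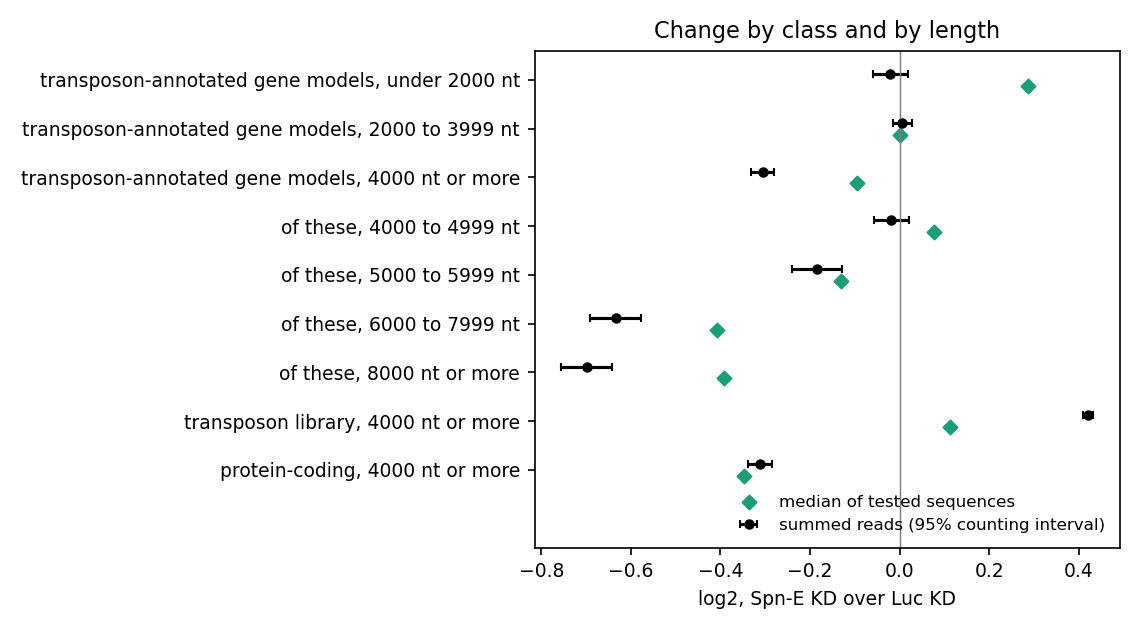
Change between the pooled libraries by class. The x axis gives the log2 ratio of Spn-E KD over Luc KD; black points are ratios of summed reads scaled to genome-mapped reads with 95% counting intervals, green diamonds are medians of the log2 fold change of tested sequences. Long transposon-annotated gene models lie at −0.31 in summed reads and at −0.096 in the median, and the summed ratio falls to −0.70 for those of 8000 nt or more.

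The median member moved little. Sequences were compared one by one where their mean over both libraries reached 10 RPM, and 207 of the 452 members passed this minimum. The log2 fold change (log2FC) is that of RPM + 1, Spn-E KD over Luc KD, so changes of low sequences are understated. The median log2FC was −0.096 for the 207 members, −0.24 for all 4727 tested sequences and −0.35 for the 433 tested protein-coding sequences of at least 4000 nt. A value near −0.24 is thus the usual shift on this scale. The median log2FC was 0.0015 for the 259 tested models of 2000 to under 4000 nt and 0.11 for the 110 tested transposon-library sequences of at least 4000 nt. With no minimum on RPM, the median over all 452 members was −0.058. Of the 207 tested members 96 had a positive value, which is 46.4%, against 34.5% of all tested sequences. These medians and shares are descriptions, since sequences are not replicates. Centring on protein-coding sequences turned the median of the members to 0.20.

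A larger share of the members than of the whole table was called, in both directions, but shorter transposon-annotated models were called higher more often. Reads were compared by an exact binomial test, Benjamini-Hochberg adjusted at 0.05 over all 4727 tested sequences. It called 15 members higher in Spn-E KD, or 7.25% of those tested, against 3.74% of all tested sequences. It called 36 members lower, or 17.4%, against 8.23% of all tested sequences. Among all tested protein-coding sequences 1.13% were called higher and 7.31% lower. Models of 2000 to under 4000 nt had 13.5% higher and 13.1% lower, and models under 2000 nt had 14.9% and 12.3%. Transposon-library sequences of at least 4000 nt had 22.7% and 20%. The members thus lay below these transposon classes upward, and below only the library downward. The split of the members depends on the scaling. When protein-coding sequences set the centre, it was 34 higher and 23 lower. It was 26 and 26 by TMM, and 24 and 27 on gene-library reads without the most abundant sequence. Of all 4727 tested sequences 454, 452 and 476 were called under these scalings, against 566 before. A change of at least 2-fold on the log2(RPM + 1) scale was seen upward in 10 members, or 4.83%, against 3.13% of all tested sequences. Downward it was seen in 18 members, or 8.70%, against 9.54%. Models of 2000 to under 4000 nt had 9.65% upward and 10.4% downward, and models under 2000 nt had 11.7% and 9.74%. Transposon-library sequences of at least 4000 nt had 2.73% and 10%. By size of change alone, falls among the members were thus close to the background. The tested members had more reads than the table, with a median of 30.01 RPM against 20.3 RPM, and 23.7% of them reached 100 RPM against 8.59% of all tested sequences. The part of this greater depth in the number of calls was not tested. The calls rest on counting error. When a coefficient of variation of 0.1 from biology was assumed, the exact test of edgeR called 24 of the 207 members and 191 of all 4727 tested sequences. When 0.2 was assumed it called 0 members, with 27 at an unadjusted p under 0.05, and 8 of all tested sequences.

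**Figure D2:**
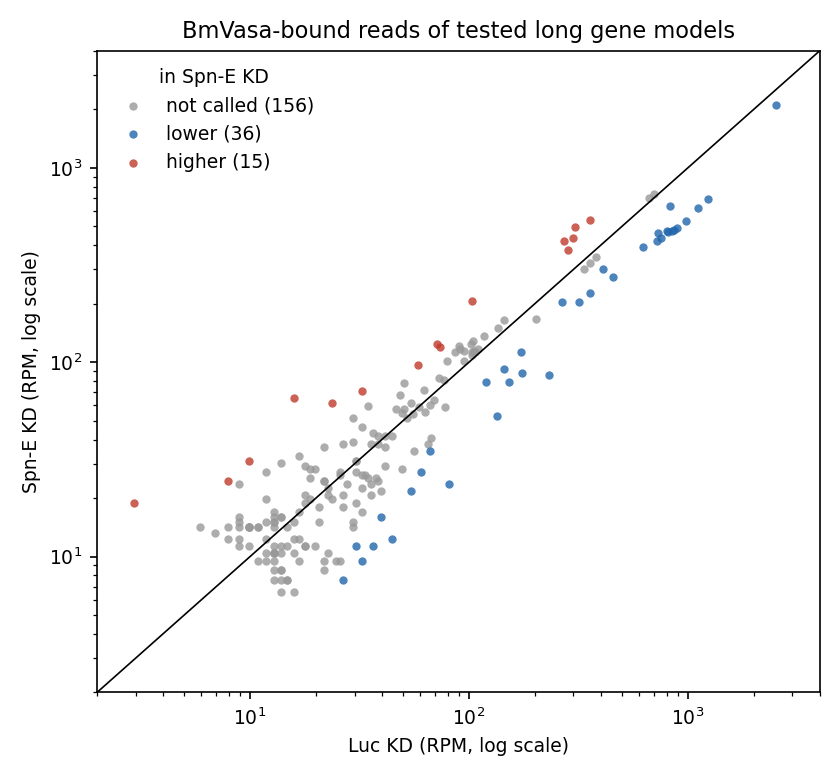
BmVasa-bound reads of the 207 tested members. The x axis gives RPM in Luc KD and the y axis RPM in Spn-E KD, both on log scales; the line marks equal values and colours mark the calls of the exact binomial test. The 36 members called lower include 13 members of 455 to 1238 RPM in Luc KD that lie below the line by a similar distance.

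Binding was concentrated on few members. The most abundant, KWMTBOMO12943 (4948 nt), held 9.002% of all member reads in Luc KD (2553 reads) and 9.32% in Spn-E KD (2238 reads). The 10 most abundant held 38.0% of the members' reads for Luc KD (95% Wilson interval 37.4 to 38.5), against 33.0% for Spn-E KD (32.4 to 33.6). The 50 most abundant held 79.1% and 75.6%. Among the 20 highest members of each library 16 were shared, so the top of the ranking was largely shared. Of the 100 sequences of the whole table with the highest mean RPM, 18 were members, beside 26 shorter transposon-annotated gene models, 29 transposon-library sequences and 27 protein-coding sequences.

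Levels of sequences of unlike length were compared by RPKM, which is RPM per kb of sequence. RPKM does not correct for the amount of each RNA in the cells, and total RNA was not analysed here. The median level of the members was 1.71 RPKM (Luc KD) and 1.58 (Spn-E KD). This was above the 1.25 and 1.07 RPKM of models of 2000 to under 4000 nt and the 1.11 and 1.11 RPKM of models under 2000 nt. It was below the 2.73 and 2.25 RPKM of protein-coding sequences of at least 4000 nt, and below the 11.4 and 11.99 RPKM of transposon-library sequences of at least 4000 nt. The order depends on whether the typical member or the sum is taken. Summed reads over summed length gave 11.5 RPKM in Luc KD for the members against 5.56 RPKM for long protein-coding sequences. The typical long transposon-annotated model thus had fewer bound reads per kb than the typical long protein-coding mRNA, while the members as a sum had more. Whether this follows the amount of each RNA was not tested. Among the members, length and mean RPKM were nearly unrelated across sequences (Spearman's rho 0.058, n = 452, all from the same pooled libraries).

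**Figure D3:**
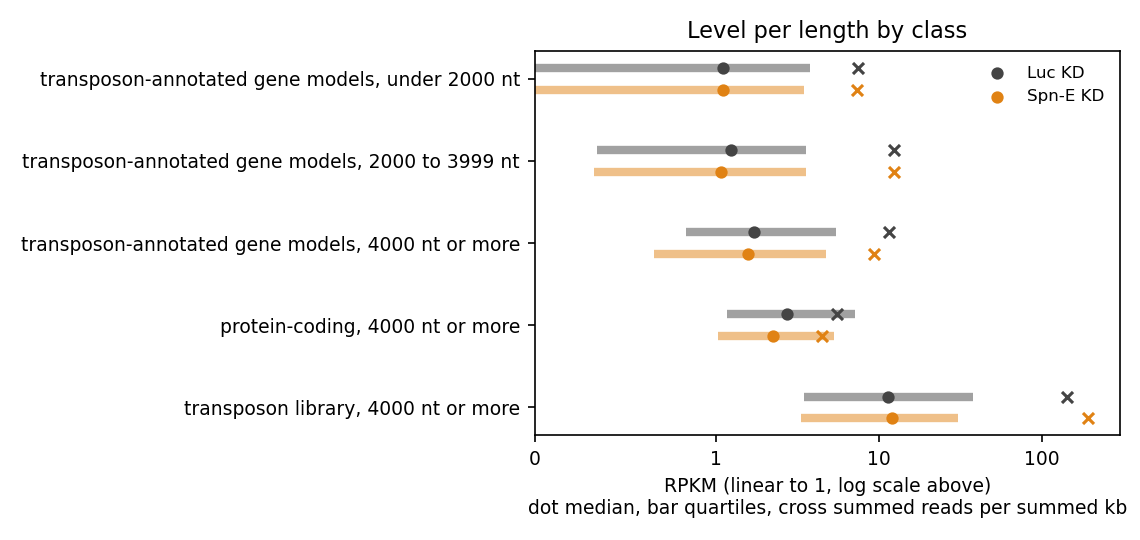
Level per length by class. The x axis gives RPKM, linear up to 1 and logarithmic above; dots are medians, bars span the quartiles and crosses are summed reads per summed kb, for Luc KD in grey and Spn-E KD in orange. The members have a median of 1.71 RPKM in Luc KD while their summed level is 11.5 RPKM, which shows the weight of a few members.

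Per kb, KWMTBOMO12943 had the highest level of all members, at 509.7 RPKM (Luc KD) and 427.0 RPKM (Spn-E KD). KWMTBOMO07490 (4089 nt) had 170.6 and 180.3 RPKM, from 706 and 781 reads. KWMTBOMO01565 (4069 nt) had 163.9 and 172.4 RPKM, from 675 and 743 reads. These last models were close in length, level and change, and neither was called, with log2FC of 0.080 and 0.073 and intervals that included 0. Both were called higher when the libraries were centred on protein-coding sequences, where they gave 0.38 and 0.37. KWMTBOMO10400 (4914 nt) had 169.1 and 129.1 RPKM, and its reads went from 841 to 672. Its log2FC of −0.39 (exact binomial adjusted p = 5.59e-06) was past the threshold, but the call was lost under TMM and when centred on protein-coding sequences. KWMTBOMO11308 (6291 nt) followed with 136.9 and 75.8 RPKM.

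KWMTBOMO12943 itself went from 2522 to 2113 RPM (log2FC −0.26, exact binomial adjusted p = 4.39e-08). The usual shift of −0.24 lies within its counting interval of −0.34 to −0.17, and the value turned to 0.043 when centred on protein-coding sequences. KWMTBOMO12944 (4379 nt), the member with the next identifier number, had 53 and 55 reads. It was not called, and its mean level of 11.9 RPKM was far below that of KWMTBOMO12943.

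The members with a mean of at least 300 RPM are described in groups of similar change. There were 26 of them, with 66.2% (Luc KD) and 61.5% (Spn-E KD) of the members' reads. The bounds used here to describe them, log2 fold changes of −0.6 and 0.4, were chosen after the values were seen, so no test is attached. Of the 26, 13 had log2 fold changes between −0.87 and −0.66, 8 lay between −0.44 and 0.080, and 5 lay between 0.41 and 0.70. These groups hold for the scaling to genome-mapped reads. When centred on protein-coding sequences KWMTBOMO06517, the lowest of the 26, was at −0.57, so none would then reach −0.6. All 13 falling and all 5 rising ones were among the calls of the exact binomial test. Bounds on the fold change at this depth pick out called members, so these calls do not back the grouping. At an assumed coefficient of variation of 0.1 edgeR kept 11 of the falling ones, not KWMTBOMO14611 or KWMTBOMO12251, and 0 of the rising ones. That count is bound to the same choice. The 13 falling models took 38.6% (Luc KD) and 27.4% (Spn-E KD) of the members' reads, and the 5 rising models took 5.40% and 10.01%.

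The falling group held the longest of the abundant models. Its lengths ran from 5032 to 11468 nt, and 11 of the 13 were at least 6000 nt long. KWMTBOMO03506 (9438 nt) went from 1253 to 732 reads (log2FC −0.84, exact binomial adjusted p = 1.24e-34). KWMTBOMO12052 (8746 nt) went from 1126 to 654 reads and KWMTBOMO06517 (9987 nt) from 989 to 566. These had log2 fold changes of −0.85 and −0.87. KWMTBOMO01911 (7873 nt) went from 899 to 520 reads, KWMTBOMO11308 from 872 to 505 and KWMTBOMO13270 (9940 nt) from 854 to 503. Their log2FC were −0.85, −0.85 and −0.83. KWMTBOMO07156 (11468 nt), the fourth longest member of all, went from 816 to 499 reads (log2FC −0.77). The remaining 6 were KWMTBOMO06755, KWMTBOMO06889, KWMTBOMO09603, KWMTBOMO02369, KWMTBOMO14611 and KWMTBOMO12251, with log2 fold changes from −0.80 to −0.66. Whether these models share reads was not tested.

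The rising group was shorter and narrower in length, from 4490 to 4858 nt. KWMTBOMO01067 (4774 nt) went from 360 to 572 reads (log2FC 0.60, exact binomial adjusted p = 1.77e-08). KWMTBOMO06141 (4858 nt) went from 309 to 527 reads and KWMTBOMO14514 (4490 nt) from 302 to 463. KWMTBOMO11466 and KWMTBOMO07240 were both of 4773 nt, and they went from 275 to 444 and from 286 to 398 reads. The 5 models had mean levels between 69.0 and 93.8 RPKM, and log2 fold changes from 0.41 to 0.70. None of the 26 abundant members changed by 2-fold or more.

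**Figure D4:**
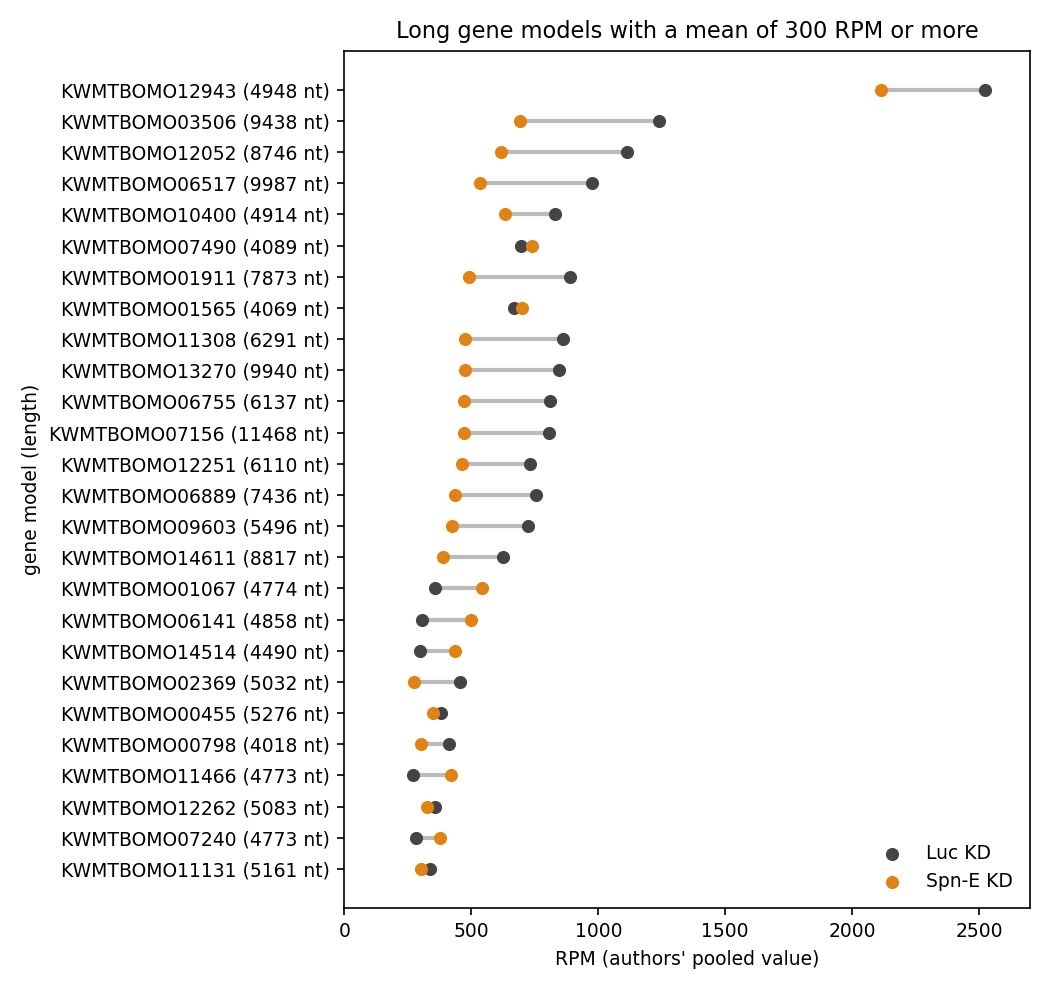
Pooled RPM of the 26 members with a mean of at least 300 RPM, in Luc KD (grey) and Spn-E KD (orange), ordered by mean. The x axis starts at 0 and the length stands beside each identifier. KWMTBOMO12943 stands apart at 2522 and 2113 RPM, and 13 members, 11 of them of 6000 nt or more, lie lower in Spn-E KD by a similar proportion.

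Within the members, the change of the summed reads varied with length. The 229 members of 4000 to under 5000 nt had 10450 reads (Luc KD) and 10795 (Spn-E KD), a log2 ratio of −0.019 (95% Clopper-Pearson interval −0.058 to 0.020). The 134 members of 5000 to under 6000 nt gave −0.18 (−0.24 to −0.13). The 62 members of 6000 to under 8000 nt had 6143 and 4144 reads, a log2 ratio of −0.63 (−0.69 to −0.58). The 27 members of 8000 nt or more had 6403 and 4129 reads, a log2 ratio of −0.70 (−0.76 to −0.64). Members of at least 6000 nt had a lower ratio than those of 4000 to under 6000 nt by 0.59 on the log2 scale, with a 95% Wald interval of the ratio of ratios from −0.64 to −0.54.

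This rested in large part on the abundant models. Without the members of 300 RPM or more, the ratio of ratios between the same length classes was −0.19 (95% Wald interval −0.28 to −0.097). The members of 8000 nt or more, without the 6 abundant ones among them, then gave a log2 ratio of −0.0056 (−0.15 to 0.14). Those of 6000 to under 8000 nt still gave −0.36 (−0.45 to −0.26). The median log2FC of all tested members was 0.076 at 4000 to under 5000 nt (96 members) and −0.41 at 6000 to under 8000 nt (33 members). Under 300 RPM the medians of the 4 length classes, from the shortest to the longest, were 0.035, 0.0015, −0.16 and −0.045. Across the tested members the relation of length to log2 fold change was weak (Spearman's rho −0.15 over 207 members, and −0.064 over the 181 under 300 RPM, all from the same libraries).

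With the abundant members kept, the same split by length gave values closer to 0 in protein-coding sequences and in the transposon library without its most abundant sequence. Protein-coding sequences of at least 6000 nt against those of 4000 to under 6000 nt gave a ratio of ratios of −0.10 (95% Wald interval −0.16 to −0.047). The transposon library gave −0.33 (−0.38 to −0.28), but with its most abundant sequence the library sequences of 8000 nt or more had a log2 ratio of 0.59. Both intervals lie above that of the members, −0.64 to −0.54. The members under 300 RPM, at −0.19, were closer to 0 than the library, and their interval, −0.28 to −0.097, overlapped that of protein-coding sequences. The library and protein-coding values were not cut at 300 RPM, so these are compared at unlike abundance.

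**Figure D5:**
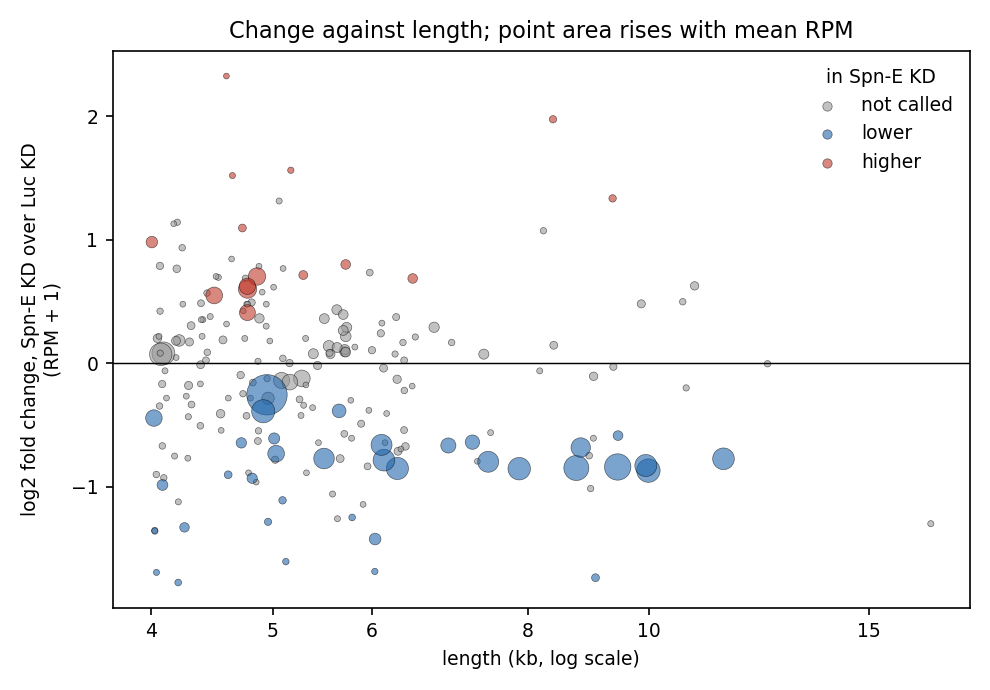
Log2 fold change (RPM + 1, Spn-E KD over Luc KD) of the 207 tested members against length in kb on a log scale. Point area rises with mean RPM and colours mark the calls of the exact binomial test. Of the large blue points, 13 run as a band between −0.87 and −0.66 from 5032 to 11468 nt, and the 5 large red points are models of 4490 to 4858 nt.

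The largest changes were found in members under a mean of 300 RPM. Among the 15 called higher, 6 changed by at least 2-fold, and among the 36 called lower 11 did. KWMTBOMO13564 (4592 nt) had 3 reads (Luc KD) against 20 (Spn-E KD), and the 95% Clopper-Pearson interval of its log2 ratio ran from 0.92 to 5.07. KWMTBOMO09946 (8378 nt) rose from 16 to 69 reads (log2FC 1.98, exact binomial adjusted p = 4.52e-07). KWMTBOMO14726 (9350 nt) rose from 24 to 65 reads (log2FC 1.34, exact binomial adjusted p = 0.000609). These last models were both longer than 8000 nt and under 300 RPM. Members of that length and abundance gave a log2 ratio of −0.0056 in summed reads.

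KWMTBOMO04304 (5170 nt) rose from 10 to 33 reads, KWMTBOMO15267 (4643 nt) from 8 to 26 and KWMTBOMO12530 (4729 nt) from 33 to 75. Their log2 fold changes were 1.56, 1.52 and 1.10. KWMTBOMO16647, which at 4003 nt is the shortest member, rose from 105 to 218 reads (log2FC 0.98, exact binomial adjusted p = 1.56e-07). KWMTBOMO03813 (5720 nt) rose from 72 to 132 reads (log2FC 0.80). Of these 8 rises, the edgeR exact test with an assumed coefficient of variation of 0.1 kept KWMTBOMO13564, KWMTBOMO09946, KWMTBOMO14726 and KWMTBOMO16647.

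Among the 8 largest falls, 3 models had over 100 reads in both libraries together. KWMTBOMO12801 (6038 nt) fell from 235 to 91 reads (log2FC −1.42, exact binomial adjusted p = 2.3e-15). KWMTBOMO00819 (9060 nt) fell from 82 to 25 reads (log2FC −1.74, exact binomial adjusted p = 2.05e-07). KWMTBOMO07040 (4251 nt) fell from 136 to 56 reads (log2FC −1.33). Each of these kept its call at an assumed coefficient of variation of 0.1.

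KWMTBOMO04620 (4202 nt) fell from 45 to 13 reads and had the lowest log2 fold change of the called members, −1.78. Its log2 ratio without the pseudocount was −1.86 (interval −2.87 to −0.94). KWMTBOMO16108 (4037 nt) fell from 27 to 8 reads, KWMTBOMO10177 (6035 nt) from 33 to 10 and KWMTBOMO16023 (5123 nt) from 37 to 12. The call of KWMTBOMO16108 was lost when centred on protein-coding sequences and at an assumed coefficient of variation of 0.1. KWMTBOMO00101 (4025 nt) fell from 31 to 12 reads (log2FC −1.36). Its log2 ratio without the pseudocount was −1.43 (interval −2.53 to −0.43), and its call was lost under the 3 other scalings and at that assumed variation. The intervals of these low-read models are wide, and their lengths span the short end and the middle of the range.

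The 5 longest members spanned a wide range of levels per kb. KWMTBOMO11603 (18201 nt) had 6 and 4 reads, which is 0.33 and 0.21 RPKM. KWMTBOMO11929 (16798 nt) had 25 and 10 reads (1.47 and 0.56 RPKM) and was not called (exact binomial adjusted p = 0.0719). KWMTBOMO00619 (12436 nt) had 23 and 24 reads, or 1.83 and 1.82 RPKM, close to the member medians. KWMTBOMO07156, of the falling group, had 70.3 and 41.1 RPKM. KWMTBOMO14717 (10874 nt) had 51 and 83 reads, or 4.63 and 7.21 RPKM, with a log2FC of 0.63 that was not past the threshold (exact binomial adjusted p = 0.0937) but was past it under the 3 other scalings.

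The models next to the bound of 4000 nt spanned a wide range of levels. Just inside it stood KWMTBOMO16647 with 38.7 RPKM as the mean of both libraries, KWMTBOMO11501 (4009 nt) with 0.846 RPKM and KWMTBOMO01289 (4015 nt) with 1.70 RPKM. Just outside it stood KWMTBOMO16043 (3998 nt) with 4.98 RPKM, KWMTBOMO11032 (3994 nt) with 2.69 RPKM and KWMTBOMO09908 (3992 nt) with 1.20 RPKM.

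Identifier numbers of members often ran on from one to the next. There were 46 pairs of members with adjoining numbers, in 38 runs. Reads were not shared evenly within these runs. In the run KWMTBOMO07154 to KWMTBOMO07157 the 4 models had 848 reads in Luc KD, of which 816 lay on KWMTBOMO07156 alone. In the run KWMTBOMO12251 to KWMTBOMO12254 the 4 models had 792, of which 741 lay on KWMTBOMO12251. Only the pair KWMTBOMO12943 and KWMTBOMO12944 took more than 5% of the members' reads, at 9.35%. Genome positions were not used here, so whether adjoining numbers mean adjoining loci was not tested.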

How the data were processed

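FAST-iCLIP libraries of BmVasa from 4 samples (2 Luc KD, 2 Spn-E KD) were analysed from 1 deposited table. The authors removed adaptors (Cutadapt 4.0) and PCR duplicates (identical reads with equal random barcodes), mapped to the SilkBase genome with STAR 2.7.9a and remapped with Bowtie 1.3.1 to gene models and transposons. They counted sense reads with SAMtools 1.15 and merged replicates. The deposited counts are raw reads per sequence. The deposited RPM are counts per 1000000 genome-mapped reads, the deposited RPKM are RPM per kb, and length is in nt. A gene model was annotated as transposon by the authors from its description or from a BLASTN match to known transposons.

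The two-sided exact binomial test, Benjamini-Hochberg adjusted (threshold 0.05), was run on every sequence whose mean reached 10 RPM, with the expected share set by genome-mapped reads, whose totals were recovered from counts over RPM. Alternatives were other scalings, minima, pseudocounts, length bounds and assumed variation. The pseudocount was 1 RPM. The edgeR quasi-likelihood test needs replicates and was not run, and p-values compare the pooled libraries. Members named are the 10 with the highest RPM, the 5 with the highest RPKM, the 8 largest called rises and falls, the 5 longest, those next to 4000 nt, and runs or equal lengths over 5% of member reads; other abundant models were named after their values were seen. The members, lists and bounds were chosen with earlier results of these data known. 0 identifiers matched the RefSeq gene table, and sequences were not analysed here. Code was tested on simulated data. Python 3.11.15, scipy 1.17.1, pandas 2.3.3, statsmodels 0.14.6, R 4.3.3 and edgeR 4.0.16 were used.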

Additional observations from a re-analysis of the deposited data

How the results depend on the processing

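No paired analysis was possible because replicates came merged into 1 column a group, and leaving out a replicate was not run.

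The share of reads was lower in Spn-E KD in each of 7 alternatives, which changed the base of the share or the set of models. The differences ran from −1.59 points at 3000 nt to −0.20 points without the members of 300 RPM or more. With genome-mapped reads as the base the difference was −0.54 points. None of the 7 used the scalings below. The offsets of 2 of these, −0.30 (centred on protein-coding sequences) and −0.23 (TMM), are close to the members' summed log2 ratio of −0.31. The 51 calls (15 higher, 36 lower) became 24 (4 and 20) with an assumed coefficient of variation of 0.1 and 0 (0 and 0) with 0.2 and with 0.4, where 27 and 2 members had an unadjusted p under 0.05 in edgeR's exact test. Over all 4727 tested sequences the calls went from 566 to 191 at 0.1, 8 at 0.2 and 0 at 0.4. The scaling changed the split, to 34 higher and 23 lower (centred on protein-coding sequences), 26 and 26 (TMM), and 24 and 27 (gene-library reads without the most abundant sequence). These scalings called 454, 452 and 476 of all tested sequences. By construction fewer or more models enter at other lengths. There were 30 calls (6 higher) among 111 tested models at 5000 nt and 20 (3 higher, 17 lower) among 57 at 6000 nt. At 3000 nt 26 of 332 were called higher. Without the members of 300 RPM or more 30 of 181 were called (20 lower). In these settings the whole table kept 566 calls of 4727.

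These scalings move every log2 fold change against offsets of −0.30, −0.23 and −0.17, and the members' median went to 0.20 when centred on protein-coding sequences, 0.13 under TMM and 0.074 on gene-library reads without the most abundant sequence. At 6000 nt it was −0.41, and its difference from protein-coding sequences, 0.25 at 4000 nt, turned to −0.043; the cause was not tested. The ratio of ratios against long protein-coding sequences was 0.19 without the members of 300 RPM or more, 0.092 at 3000 nt, −0.19 at 5000 nt and −0.36 at 6000 nt. In reads per summed kb, the members were at 0.936 times the models of 2000 to under 4000 nt, 2.07 times long protein-coding sequences and 0.0807 times long transposon-library sequences, where medians gave 1.37, 0.626 and 0.150.

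Of the 25 named members called by the exact binomial test, 4 calls were lost when centred on protein-coding sequences, 3 under TMM and 2 on gene-library reads without the most abundant sequence. With assumed variation 8 were lost at 0.1 and 25 at 0.2 and at 0.4. KWMTBOMO12943 reversed, to 0.043 when centred on protein-coding sequences. The pseudocount cannot change a call, since the test is on reads. Depth limits the low members, since 70 of the 452 had 3 reads or fewer in both libraries.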

Other observations

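Transposon-library sequences of at least 4000 nt and 300 RPM had log2 fold changes from −1.51 to 0.76, against −0.87 to 0.70 for the 26 gene models of that abundance. Of 24 such sequences, 6 had a log2 fold change of −0.6 or less and 9 of 0.4 or more, by the same bounds as for the gene models and likewise chosen after the values were seen. Yamato, an LTR/Pao element of 6400 nt, went from 1320 to 764 reads (log2FC −0.85.) Inoki, also LTR/Pao and 6369 nt long, went from 813 to 309 reads (log2FC −1.46.) Kokubaru_6926bp, an LTR/Pao element of 6926 nt, went from 341 to 592 reads (log2FC 0.73), so long library elements of the same class moved in both directions. Whether any of them shares sequence with the falling gene models was not tested.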
